A study of Mus musculus with 9 samples.

Results

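The subject is the S100 gene cluster of mouse chromosome 3, followed through 7 of its genes (*S100a1*, *S100a13*, *S100a16*, *S100a4*, *S100a6*, *S100a11* and *S100a10*) of 14011 genes in the table of embryonic heart RNA. *S100a1* was chosen by its normalized read counts in the 3 genotypes, as one of the largest falls in hearts lacking *Ctcf*, and the other 6 were taken as its relatives on the same chromosome with their values already known. The table held all 7, and the annotation lists 16 S100 genes, of which 10 were in the table. The annotation places 13 on chromosome 3, and 9 of these were in the table. The other 3 in the table (*S100a8*, *S100a9* and *S100g*) are described after the 7.

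RNA was sequenced from mouse hearts at E10.5, when the heart tube has looped and the chambers are forming, to ask how gene expression depends on CTCF, a DNA-binding protein that organizes chromosome folding. Controls carried the floxed *Ctcf* allele and no Cre (labelled Ctcf fl/fl, while the study's methods give fl/+), heterozygotes were Ctcf fl/+; Nkx2.5-Cre/+ and homozygotes were Ctcf fl/fl; Nkx2.5-Cre/+. Each of the 3 groups had 3 libraries, each from a pool of 6 hearts of mixed strain, so the spread between libraries is the spread between pools. Nkx2.5-Cre acts in cardiac progenitors and their descendants and the whole heart was used, so cells without Cre add *Ctcf* and other transcripts to every library. The controls lacked Cre, so the effect of Cre and the loss of *Ctcf* cannot be told apart wherever controls are compared. Libraries held 4294537 to 11629365 reads assigned to genes.

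S100 proteins are small calcium-binding proteins of the EF-hand family that mostly act as dimers: calcium binding exposes a surface with which they hold a partner protein. *S100a1* is the family member typical of heart muscle, where its protein binds the ryanodine receptor and the calcium pump of the sarcoplasmic reticulum. The others are found in many cell types, and their partners include annexins, myosin and proteins that leave the cell by unusual routes.

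On the NCBIM37 mouse assembly, the build of the deposited files, *S100a1* (ENSMUSG00000044080, chr3:90314956-90318314, minus strand) and *S100a13* (ENSMUSG00000042312, chr3:90318357-90328503, plus strand) point away from each other. Their annotated starts are 43 bases apart. The 42 bases between them, outside the exons of both, are shown here because they separate the 2 starts. Whether they act as a promoter of either gene was not tested.
Gap between *S100a1* and *S100a13*, chr3:90318315-90318356, plus strand: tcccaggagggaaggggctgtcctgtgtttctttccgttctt

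The remaining members all lie on the plus strand. *S100a16* (ENSMUSG00000074457, chr3:90341176-90347073) starts 22.8 kb beyond *S100a13*, and *S100a4* (ENSMUSG00000001020, chr3:90407692-90409967) and *S100a6* (ENSMUSG00000001025, chr3:90416816-90418336) start 9.12 kb from each other. *S100a11* (ENSMUSG00000027907, chr3:93324410-93330209) starts 2908 kb past *S100a6*, and *S100a10* (ENSMUSG00000041959, chr3:93359002-93368565) 34.6 kb past that. The 7 genes therefore form a near group of 5 and a distant pair.

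The 300 bases from 250 before to 50 after each annotated start were searched on both strands for the core of the CTCF motif (CCA, 2 bases of any kind, AG, 2 bases of any kind, then GGC) and for the TATA box, TATAAA. *S100a6* was the only member with the CTCF core, 102 bases before its start on the plus strand, and *S100a4* the only one with the TATA box, 31 bases before its start. Of 13972 such windows in the table, 3.13% held the CTCF core and 7.87% the TATA box. A match is a description of letters and not a bound site. The 120 bases before the start of both genes are shown because they carry these matches, in capitals.
*S100a6*, chr3:90416696-90416815, plus strand: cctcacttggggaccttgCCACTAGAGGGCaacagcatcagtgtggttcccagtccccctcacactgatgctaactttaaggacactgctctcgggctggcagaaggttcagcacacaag
*S100a4*, chr3:90407572-90407691, plus strand: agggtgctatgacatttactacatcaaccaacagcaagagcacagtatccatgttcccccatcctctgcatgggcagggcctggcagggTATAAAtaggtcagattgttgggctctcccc

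*Ctcf* itself (ENSMUSG00000005698) checks the labels. Its normalized read count, which is the number of reads of a gene after the authors' scaling of the libraries to a common total, was 120.5, 122.1 and 121.7 in the controls, 100.7, 94.2 and 97.0 in the heterozygotes and 79.59, 79.97 and 84.70 in the homozygotes. The 3 groups did not overlap and followed the order of the genotypes. The homozygotes kept 67.0% of the control mean, and the heterozygotes 80.1%.

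*S100a1* followed the same order with a far larger fall. Its normalized read count was 19.6, 17.0 and 17.8 in the controls, 11.92, 9.65 and 10.03 in the heterozygotes and 3.29, 4.15 and 5.72 in the homozygotes. No library of one group reached the values of another, so the heterozygotes stood between the other groups as a whole. On the mean of the libraries, the heterozygotes held 58.1% and the homozygotes 24.2% of the control level.

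These values rested on 121 to 168 reads per library in the controls, 43 to 121 in the heterozygotes and 14 to 63 in the homozygotes. Fitted with limma on log2(normalized read count + 0.5), *S100a1* differed by -1.96 ± 0.17 (SE, n = 3 against 3) between homozygotes and controls, by -1.20 ± 0.17 between homozygotes and heterozygotes and by -0.76 ± 0.17 between heterozygotes and controls. The last of these did not pass the threshold used for the other genes. No p is given because the gene was chosen for this fall. Over the alternatives of the fit and each left-out library, the difference between homozygotes and controls stayed between -2.17 and -1.79, and that between heterozygotes and controls between -0.85 and -0.70. In a whole heart, fewer cells that express a gene and less of its RNA in each cell cannot be told apart.

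**Figure D1:**
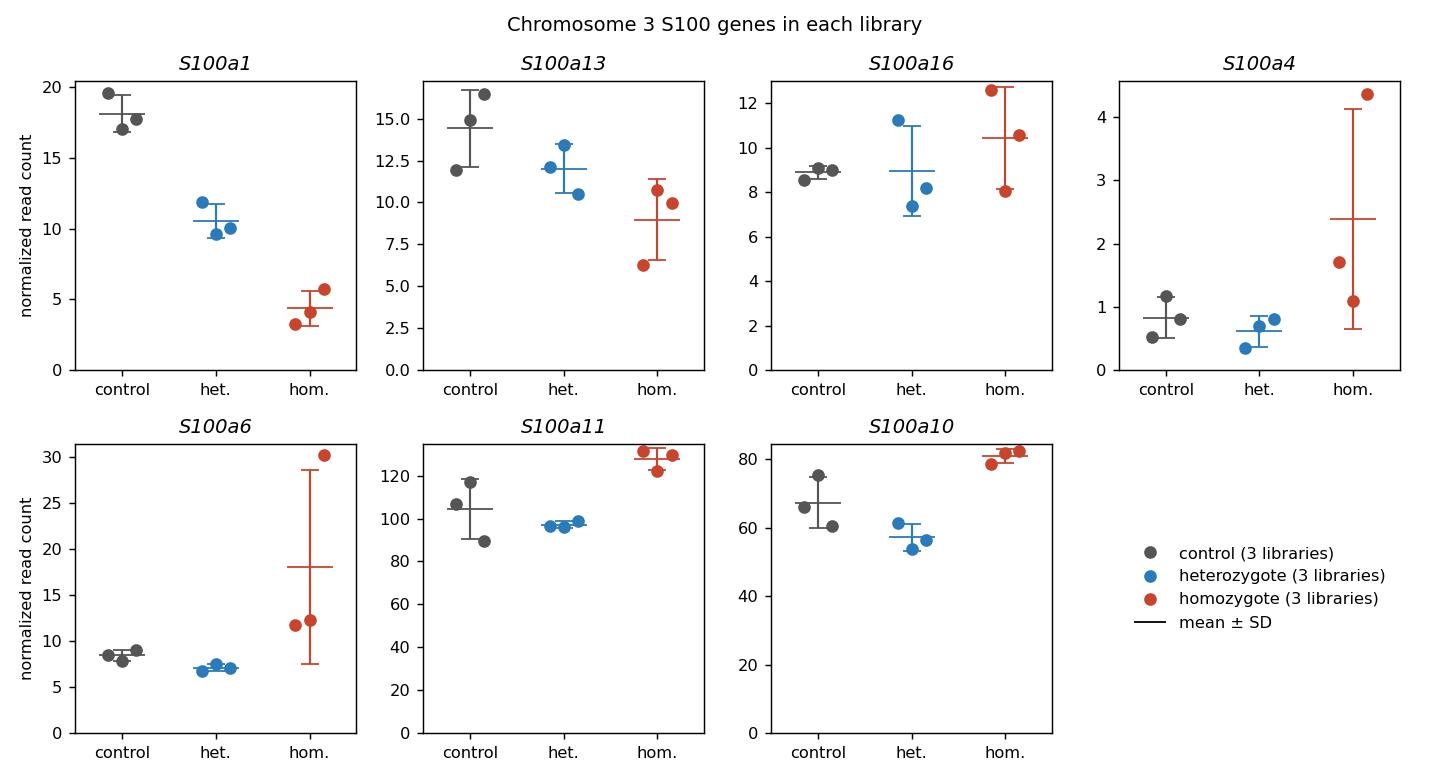
Normalized read count (y axis, from 0, its range set for each gene) of the 7 S100 genes in the 3 control, 3 heterozygote and 3 homozygote libraries; points are libraries, and the bars are the mean ± SD of each group. *S100a1* steps down from 17.0 to 19.6 in the controls to 3.29 to 5.72 in the homozygotes, whereas *S100a11* and *S100a10* are highest in the homozygotes and *S100a6* and *S100a4* have 1 homozygote library far above the rest.

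*S100a13*, whose protein helps FGF1 and interleukin 1 alpha leave the cell without a signal peptide, was the one neighbor with lower values in the homozygotes. It measured 11.9, 14.9 and 16.4 in the controls, 12.1, 13.4 and 10.5 in the heterozygotes and 6.24, 10.7 and 9.95 in the homozygotes. The homozygotes lay below every control, and overlapped the heterozygotes. The homozygote mean was 62.3% of the control mean, against 24.2% for *S100a1* across the 42-base gap.

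The fitted difference of *S100a13* was -0.68 ± 0.19 (SE, log2) between homozygotes and controls. Between homozygotes and heterozygotes it was -0.43, with a 95% interval from -0.84 to -0.02 before adjustment and an adjusted p of 0.160 (limma, Benjamini-Hochberg over all 14011 genes). Between heterozygotes and controls it was -0.25 (adjusted p = 0.834 by limma). Without homozygote library 1 the first difference was -0.45 and the second -0.20.

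*S100a16*, a broadly expressed member, showed no separation of the groups. Its normalized read count was 8.56, 9.10 and 8.99 in the controls, 11.2, 7.38 and 8.19 in the heterozygotes and 12.6, 8.04 and 10.6 in the homozygotes. The 3 groups overlapped throughout. The difference between homozygotes and heterozygotes was 0.21 on the log2 scale (95% interval -0.18 to 0.60, adjusted p = 0.499 by limma), and that between homozygotes and controls was 0.20 ± 0.18 (SE).

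*S100a6*, or calcyclin, was higher in every homozygote library. It measured 8.44, 7.88 and 8.99 in the controls, 6.72, 7.51 and 7.04 in the heterozygotes, and 11.7, 12.3 and 30.3 in the homozygotes. Homozygote library 3 stood apart from the other homozygotes, which were themselves above all 6 other libraries. The fitted difference was 1.15 ± 0.27 (SE, log2, adjusted p = 0.0131 by limma) from the heterozygotes and 0.92 ± 0.27 from the controls. Without homozygote library 3 the difference from the heterozygotes was 0.72 (adjusted p = 0.0145 by limma) and that from the controls 0.48. The adjusted p against the heterozygotes was 0.0615 when limma was run without the mean-variance trend, which ended the call.

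*S100a4*, whose protein binds non-muscle myosin and which is widely used as a marker of fibroblasts and motile cells, was barely expressed. It was covered by only 3 to 11 reads in each of the 6 control and heterozygote libraries, at 0.52, 1.17 and 0.80 in the controls and 0.34, 0.69 and 0.81 in the heterozygotes. The homozygotes measured 1.70, 1.10 and 4.37, from 7, 6 and 48 reads. The homozygotes were above every heterozygote, overlapped the controls, and again had library 3 at the top.

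*S100a4* reached 1, the level a gene needed in at least 3 libraries to be in the table, in 3 homozygote libraries and in 1 other, so it is in the table only through the group where it is high. Its differences are therefore given without a test. It differed by 1.23 ± 0.40 (SE, log2) between homozygotes and heterozygotes, and by 0.78 without homozygote library 3. The same difference was 2.31 by edgeR on the reads.

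*S100a11* had the highest level of the 7. It binds annexin A1 and takes part in membrane repair and cell growth. Its normalized read count was 106.8, 117.0 and 89.5 in the controls, 96.5, 95.9 and 99.1 in the heterozygotes and 131.6, 121.9 and 129.5 in the homozygotes. Every homozygote library was above the other 6. The difference was 0.39 ± 0.08 (SE, log2, adjusted p = 0.00765 by limma) from the heterozygotes, a fold of 1.31, and 0.30 ± 0.08 from the controls.

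*S100a11* has the shortest exonic length of the 7, 511 bases. With the trend of log2 values on exonic length removed in each library, its difference fell to 0.16 from the heterozygotes (adjusted p = 0.164 by limma) and to 0.05 from the controls. The assembly holds 2 further stretches at least 95% identical to its exonic sequence over at least 50% of the length. One lies at *Gm7665* and the other at *Uqcrh* and the pseudogene *Gm12854*, so some *S100a11* reads may have been shared with a copy. No such copy was found for the other 6 members.

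*S100a10*, or p11, is the partner of annexin A2 and brings ion channels to the cell surface. It measured 65.9, 75.3 and 60.6 in the controls, 61.4, 53.8 and 56.4 in the heterozygotes and 78.7, 81.8 and 82.5 in the homozygotes. The homozygote libraries lay within a narrow range above all others. The difference was 0.50 ± 0.08 (SE, log2, adjusted p = 0.00175 by limma) from the heterozygotes, a fold of 1.41, and 0.27 ± 0.08 from the controls. The first of these passed its threshold under all 19 alternatives and left-out libraries, with adjusted p from 0.00123 to 0.0211 by limma or edgeR.

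**Figure D2:**
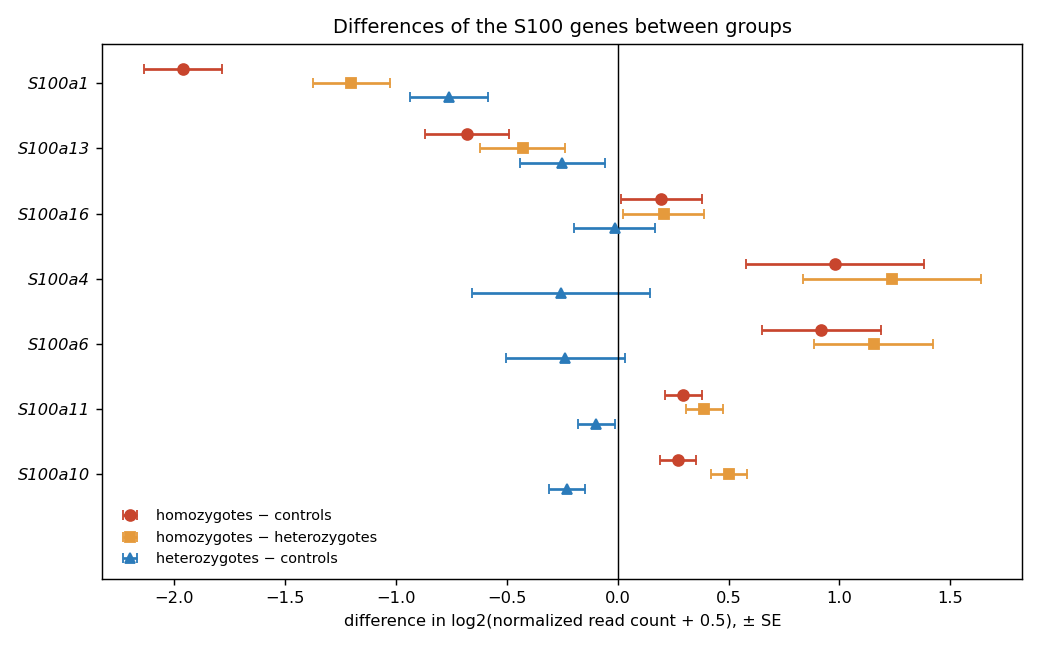
Differences in log2(normalized read count + 0.5) between groups (x axis, ± SE of the limma fit, 3 libraries in each group) for the 7 S100 genes (y axis, in chromosome order); circles are homozygotes minus controls, squares homozygotes minus heterozygotes and triangles heterozygotes minus controls. *S100a1* and *S100a13* lie left of 0 in all 3 comparisons, whereas *S100a6*, *S100a11* and *S100a10* lie right of 0 by up to 1.15 in the homozygotes.

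Counted over the 6 neighbors of *S100a1*, 3 were called higher in homozygotes than in heterozygotes (*S100a6*, *S100a11* and *S100a10*) and 0 lower, at an adjusted p under 0.05 by limma, where 13.6% of all genes were called, 6.87% higher and 6.7% lower. Of the 1785 genes as long as the members (511 to 1617 bases of exon), 16.9% were called and the median difference was 0.12, against 0.00 over all genes. With the length trend removed, 2 of the 6 were called. The homozygote libraries of 4 of the 6 lay above all heterozygotes, as did those of 15.3% of all genes, but 1 of the 4, *S100a4*, is in the table only through the homozygotes, so nothing is read from this count. The choice of *S100a1* drew on these same libraries, those of all 3 genotypes.

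In the contrast between homozygotes and controls, the values are a description, because *S100a1* was chosen for its fall in the homozygotes. In it 3 neighbors were past the threshold upward, 1 (*S100a13*) downward, and 15.2% of all genes were called, 7.19% higher and 8.03% lower. The median difference was 0.14 over genes of their length. The libraries did not overlap for 5 of the 7 members, 3 above and 2 below the controls, and for 33.2% of all genes, 16.6% above and 16.5% below. The count of calls was not stable: 0 of the 6 were called without control library 3.

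Between heterozygotes and controls, 0 of the 6 neighbors passed by limma and 0 by edgeR, where 0.143% of all genes passed, 0.0928% higher and 0.05% lower. One of them, *S100a10*, had an unadjusted p under 0.05 and a difference of -0.23 (95% interval -0.40 to -0.05, adjusted p = 0.530 by limma). In this comparison 1032 of all 14011 genes had an unadjusted p under 0.05 by limma. The fitted difference was below 0 for each of the 7, from -0.76 for *S100a1* to -0.01 for *S100a16*, although that of *S100a16* turned positive by edgeR and without heterozygote library 2 or 3 or control library 2. The 4 members with higher values in the homozygotes (*S100a4*, *S100a6*, *S100a11* and *S100a10*) had fitted differences of -0.25 to -0.10 between heterozygotes and controls, none of them called. Of the 6, 1 (*S100a6*) had every heterozygote library below every control and 0 had every one above, beside 6.93% and 7.41% of all genes.

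Divided by exonic length to compare genes, the control means ran from 204.4 normalized reads per kb for *S100a11* through 55.5 for *S100a10*, 26.1 for *S100a1*, 20.2 for *S100a13*, 11.7 for *S100a6* and 5.49 for *S100a16* to 1.42 for *S100a4*. No neighbors in this order overlapped between the 3 control libraries. In the heterozygotes *S100a1* (15.2 per kb) and *S100a13* (16.8 per kb) overlapped. In the homozygotes *S100a1* stood at 6.32 per kb, where its libraries overlapped those of *S100a16* (6.44 per kb). *S100a4* averaged 4.07 per kb and overlapped *S100a1* only through homozygote library 3, without which it averaged 2.39 per kb. *S100a6*, at 25.2 per kb in the homozygotes and 16.7 per kb without homozygote library 3, stood above both *S100a13* (12.6 per kb) and *S100a1* in this order.

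The 3 remaining S100 genes of the table were low and none was called in any comparison. *S100a8* and *S100a9*, the calprotectin genes of neutrophils and monocytes, lie in the near group beyond *S100a6*. *S100a8* measured 1.45, 3.10 and 2.41 in the controls, 0.44, 1.32 and 1.96 in the heterozygotes and 1.249, 1.608 and 4.998 in the homozygotes. *S100a9* measured 3.43, 2.59 and 3.87 in the controls, 0.34, 0.95 and 2.19 in the heterozygotes and 0.34, 1.78 and 5.27 in the homozygotes. Both were highest in homozygote library 3, as were *S100a4* and *S100a6*. *S100g*, on another chromosome, was at 14.0 in control library 1 and at most 1.198 elsewhere.

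Genes of other families around the cluster were read across the stretch from 250 kb before *S100a1* to 250 kb past *S100a10*. It held 13 tested genes besides the 7, *S100a8* and *S100a9* included. Of these, 4 were called between homozygotes and heterozygotes, 2 in each direction, and 3 between homozygotes and controls, 2 higher and 1 lower, beside the 13.6% and 15.2% of all genes. One of the higher genes in both, *Tchh*, reached 1 in only 2 libraries other than the homozygotes and so is in the table only through them, which leaves 3 of 12 and 2 of 12. Without heterozygote library 3 or homozygote library 3, the 4 calls against heterozygotes became 2. The 13 genes had a median difference of -0.11 between homozygotes and controls.

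The gene next to *S100a1* on its other side, *2500003M10Rik* (also named *Chtop*, a factor of mRNA export), starts 4.89 kb away. It averaged 181.0 ± 3.19 (SD, n = 3) in the controls, 175.4 ± 8.21 in the heterozygotes and 180.5 ± 7.07 in the homozygotes. Its difference between homozygotes and controls was 0.00 with a 95% interval from -0.12 to 0.12 (adjusted p = 0.968 by limma), so a change of the size seen in *S100a1* or *S100a13* lay outside its interval.

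*Snapin*, a subunit of the complexes that move lysosomes and vesicles, starts 23.4 kb from *S100a1* and was higher in the homozygotes. It measured 31.7, 35.4 and 33.4 in the controls, 36.9, 33.0 and 33.3 in the heterozygotes and 44.2, 49.7 and 46.6 in the homozygotes. The homozygotes did not overlap the others, with a difference of 0.48 ± 0.08 from the controls (SE, log2, adjusted p = 0.00196 by limma) and of 0.44 from the heterozygotes (adjusted p = 0.00365 by limma). Its annotated 3′ end overlaps that of *Ilf2*, so their reads could be shared.

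*Dennd4b*, an activator of Rab GTPases 249 kb from *S100a1*, had the largest fitted fall of the 13 genes in both homozygote comparisons. It measured 16.8, 20.3 and 17.2 in the controls, 18.9, 20.2 and 18.3 in the heterozygotes and 9.20, 7.87 and 10.04 in the homozygotes. The heterozygotes lay among the controls, unlike those of *S100a1*. The difference was -0.96 ± 0.12 from the controls (SE, log2, adjusted p = 0.000278 by limma) and -1.05 from the heterozygotes (adjusted p = 0.000196 by limma).

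*Tchh*, a structural protein of hair follicles 78.2 kb before *S100a11*, was low in every group, at 1.047 ± 0.317 (SD, n = 3) in the controls, 0.92 ± 0.62 in the heterozygotes and 3.15 ± 0.73 in the homozygotes. Its difference was 1.24 ± 0.34 (SE, log2) from the controls and 1.44 ± 0.34 from the heterozygotes, given without a test because of how it entered the table. *Ints3*, a subunit of the Integrator complex, was lower in homozygotes than in heterozygotes (difference -0.18, adjusted p = 0.0483 by limma), its controls in between. Apart from *Tchh*, the called genes of the stretch went in both directions, and nothing about the stretch is read from their counts.

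**Figure D3:**
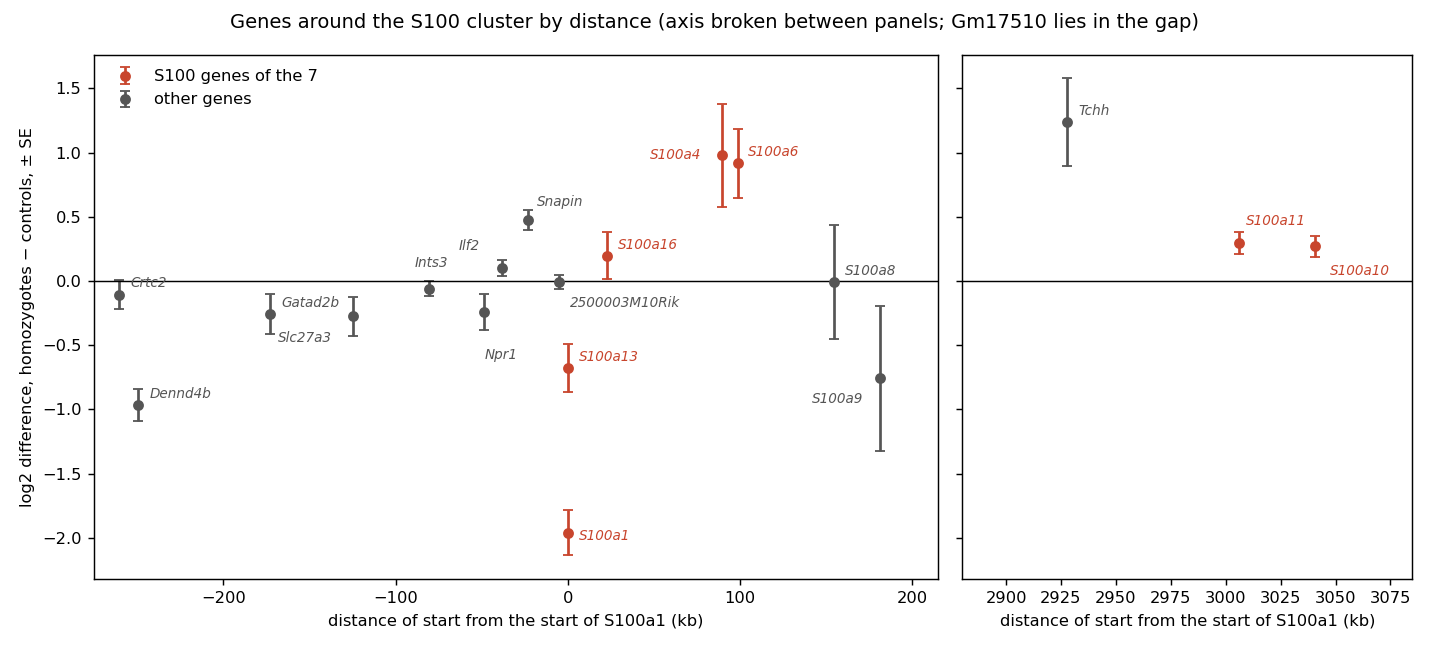
Difference in log2(normalized read count + 0.5) between homozygotes and controls (y axis, ± SE, 3 libraries in each group) of tested genes around the S100 cluster, against the distance of their start from that of *S100a1* in kb (x axis, in 2 panels with the gap left out); red points are the 7 S100 genes and grey points other genes. *S100a1* (-1.96), *S100a13* (-0.68) and *Dennd4b* (-0.96) lie below 0, with *2500003M10Rik* at 0.00 beside *S100a1* and *Snapin* at 0.48.

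The genes of 19 proteins known to bind S100 proteins, or in 1 case (*Ager*) their receptor, were read beside the members they serve. In the homozygotes 6 of the 19 were called against controls, 2 higher and 4 lower, and 6 against heterozygotes, again 2 higher and 4 lower, at 31.6% each beside 15.2% and 13.6% of all genes. These counts were not stable: 2 were called against controls without control library 3 and 3 without homozygote library 3, 2 against heterozygotes without homozygote library 3 and 3 without heterozygote library 2, and 2 in both comparisons without the mean-variance trend. Against the controls, the heterozygotes had 0 of the 19 called by limma, beside 0.143% of all genes. An unadjusted p under 0.05 by limma was reached by 0 of the 19, beside 1032 of all 14011 genes.

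Of the 5 partners of S100A1, none had a fitted value above the heterozygotes or controls in the homozygotes. *Ryr2*, the calcium release channel of the sarcoplasmic reticulum, measured 298.5, 295.6 and 369.9 in the controls, 238.9, 314.8 and 353.5 in the heterozygotes and 159.8, 169.7 and 114.8 in the homozygotes. The homozygotes stood below all other libraries and the heterozygotes overlapped the controls. Its difference was -1.13 ± 0.15 (SE, log2, adjusted p = 0.000391 by limma) from the controls and -1.03 (adjusted p = 0.000962 by limma) from the heterozygotes.

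*Pln*, the inhibitor of the calcium pump, averaged 359.4 ± 56.2 (SD, n = 3) in the controls, 364.1 ± 15.03 in the heterozygotes and 264.2 ± 26.5 in the homozygotes, which was lower than in the heterozygotes (difference -0.47, adjusted p = 0.00788 by limma). Its difference from the controls was -0.44 (adjusted p = 0.00999 by limma). *Atp2a2*, the pump itself, was lower in homozygotes than in heterozygotes (difference -0.42, adjusted p = 0.0333 by limma) and differed from the controls by -0.23 (adjusted p = 0.212 by limma). *Ttn*, the giant sarcomere spring, had a difference of -0.60 (adjusted p = 0.137 by limma) from the heterozygotes, and *Atp5a1*, a subunit of the mitochondrial ATP synthase, one of -0.09 (adjusted p = 0.383 by limma). Between heterozygotes and controls the 5 partners had fitted differences of -0.10 to 0.18, none of them called.

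Of the partners of S100A6, *Cacybp*, the calcyclin-binding protein of a ubiquitin ligase, was higher in the homozygotes by 0.22 from the controls (adjusted p = 0.0218 by limma) and 0.26 from the heterozygotes (adjusted p = 0.0116 by limma). Its libraries ran from 169.5 to 186.2 in the homozygotes and from 143.3 to 157.3 in all others, without overlap. *Sugt1*, *Anxa11* and *Anxa6* were not called in either comparison.

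*Anxa1*, the annexin partner of S100A11, was higher as well, at 11.5, 14.0 and 15.6 in the homozygotes against 8.09, 8.90 and 7.67 in the controls and 7.80, 7.13 and 10.5 in the heterozygotes. Its difference was 0.69 ± 0.17 (SE, log2, adjusted p = 0.0131 by limma) from the controls and 0.67 (adjusted p = 0.0178 by limma) from the heterozygotes. *Anxa5* differed from the heterozygotes by 0.04 (95% interval -0.08 to 0.17).

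The partners of S100A10 did not share its rise. *Anxa2*, which forms a heterotetramer with S100A10, averaged 220.0 ± 9.70 (SD, n = 3) in the controls, 211.4 ± 7.85 in the heterozygotes and 213.5 ± 8.69 in the homozygotes, a difference of 0.01 from the heterozygotes with a 95% interval from -0.11 to 0.14. *Kcnk3*, a potassium channel carried to the membrane by S100A10, was lower than in the heterozygotes (difference -0.72, adjusted p = 0.0131 by limma). Its difference from the controls was -0.59 (adjusted p = 0.0291 by limma). *Ahnak*, a large scaffold, was lower than in the controls (difference -0.44, adjusted p = 0.0130 by limma), and its difference from the heterozygotes, -0.31, had an adjusted p of 0.0659 by limma. The partners of S100A13 (*Fgf1* and *Syt1*), those of S100A4 (*Myh9* and *Trp53*) and the receptor gene *Ager* were not called in either comparison.

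**Figure D4:**
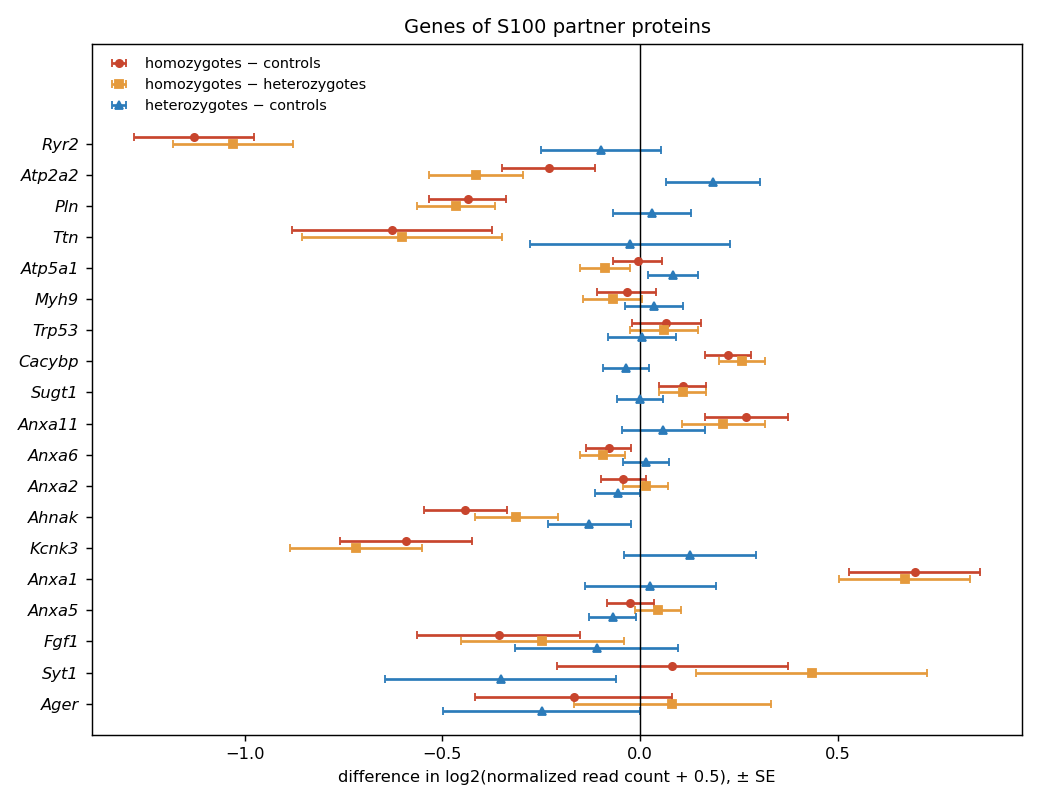
Differences in log2(normalized read count + 0.5) between groups (x axis, ± SE of the limma fit, 3 libraries in each group) for the 19 partner genes (y axis); circles are homozygotes minus controls, squares homozygotes minus heterozygotes and triangles heterozygotes minus controls. *Ryr2* lies farthest left, at -1.13 and -1.03 for the homozygotes, *Anxa1* farthest right, at 0.69 and 0.67, and the triangles lie nearer to 0 for both.

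Markers of the cell types of the heart were read from the same fit. Over all genes, the homozygotes had 7.19% called higher and 8.03% lower against controls, and 6.87% and 6.7% against heterozygotes. Of 14 cardiomyocyte markers, 1 was called higher and 3 lower in homozygotes against controls (0 and 5 against heterozygotes), and their summed normalized read count ran from 22615 to 25529 in the controls, 25458 to 29288 in the heterozygotes and 22030 to 25541 in the homozygotes. Of 8 epicardial markers, 3 were higher in the homozygotes in both comparisons (*Wt1*, *Upk3b* and *Tbx18*), with sums of 457.4 to 500.5 in the controls, 468.7 to 491.2 in the heterozygotes and 551.7 to 634.3 in the homozygotes. All 8 erythroid markers were higher in both, with sums of 31790 to 46303, 25571 to 43253 and 56794 to 75117. Of 10 endothelial and endocardial markers, 1 was higher and 3 lower against the controls and 1 lower against the heterozygotes, and of 8 cushion mesenchyme markers 1 was lower in both comparisons. Of the other 5 epicardial markers, *Krt8* had lower values (mean 47.4 in the controls, 39.6 in the heterozygotes and 33.6 in the homozygotes) and was not called. The summed epicardial and erythroid levels were higher in the homozygotes together with those of *S100a6*, *S100a11* and *S100a10*, and their part in these was not tested. The summed cardiomyocyte levels of homozygotes and controls overlapped.

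The macrophage markers summed to 19.98, 25.7 and 40.9 in homozygote libraries 1, 2 and 3, 39.1 to 44.7 in the controls and 27.6 to 28.4 in the heterozygotes. Of the 8 macrophage markers 1 was called, *Lyz2* (lysozyme), at 18.8, 22.2 and 23.6 in the controls, 12.9, 14.7 and 13.5 in the heterozygotes and 6.24, 7.19 and 13.2 in the homozygotes. It was lower in the homozygotes than in the controls (difference -1.30, adjusted p = 0.00142 by limma) and the heterozygotes (difference -0.67, adjusted p = 0.0496 by limma), and its group means had the order of those of *S100a1*. The list did not move as one: *Cd68* differed by 0.45 from the controls and 0.66 from the heterozygotes without being called, and the median over the 8 was -0.05 and 0.21. Homozygote library 3 thus held the highest macrophage and erythroid sums of the homozygotes together with the highest *S100a4*, *S100a6*, *S100a8* and *S100a9*. Whether these belong together was not tested. *Nkx2-5*, the cardiac transcription factor gene that gives the Cre line its name, measured 69.2, 81.2 and 75.8 in the controls, 53.7, 58.8 and 58.5 in the heterozygotes and 38.3, 36.8 and 41.4 in the homozygotes. It therefore had the same order of groups as *S100a1*, and its part in the fall of *S100a1* was not tested.

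Among 11127 genes with a mean normalized read count of at least 5, the 5 whose log2 values were most like those of *S100a1* over the 9 libraries were *C1qtnf6* (Pearson's r = 0.988), *Ctcf* (0.972), *Enah* (0.968), *Pdzd8* (0.966) and *Prkrir* (0.959). The correlation describes a pattern set mainly by the group order, and the 9 points share groups, depth and scaling. *C1qtnf6*, a secreted protein with a C1q domain, averaged 43.4 ± 1.048 (SD, n = 3) in the controls, 39.3 ± 1.83 in the heterozygotes and 30.3 ± 1.504 in the homozygotes. *Enah*, a regulator of actin filaments, kept 68.6% of the control mean in the homozygotes, *Pdzd8* 76.1% and *Prkrir* 70.6%. Each of the 5 fell by less than *S100a1*, which kept 24.2%. No other S100 gene was among the 5.

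**Figure D5:**
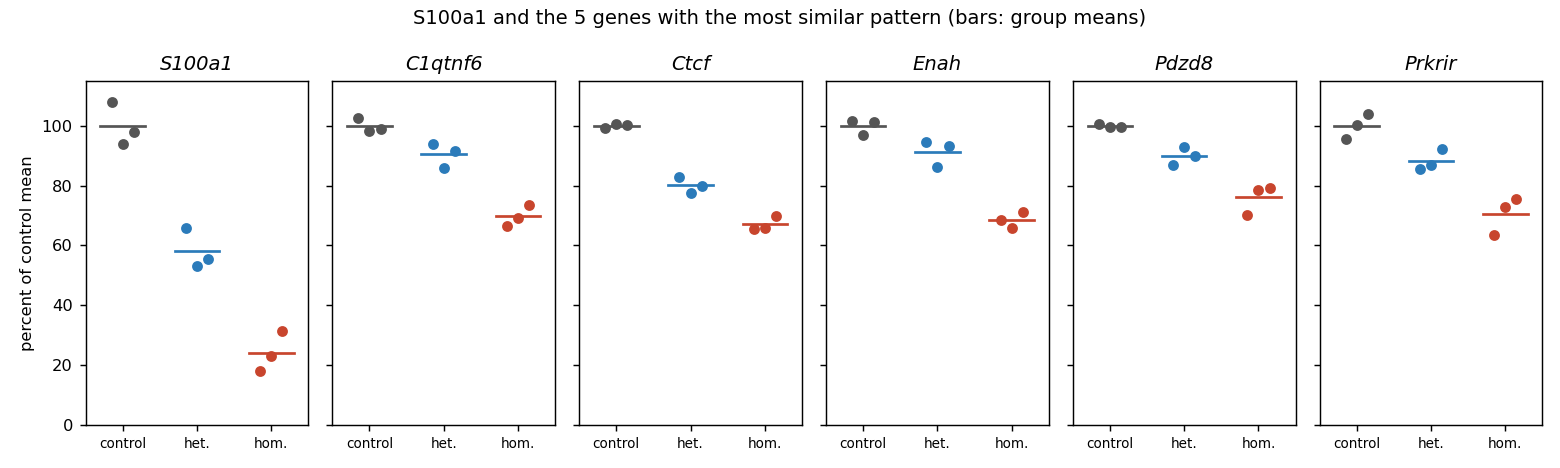
Values of *S100a1* and of the 5 genes with the most similar pattern as a percentage of each gene's control mean (y axis, from 0) in the 3 control, 3 heterozygote and 3 homozygote libraries; points are libraries and bars are group means. All 6 genes step down from controls to homozygotes, with *S100a1* at 24.2% and the others at 67.0% to 76.1% in the homozygotes.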

How the data were processed

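RNA-seq of 9 pools of E10.5 hearts was analysed from the deposited gene table. Its values are a signal that the authors made by dividing reads plus 0.5 by an effective library size and scaling to a common total. The submitters' processing notes name CASAVA 1.8, cutadapt 1.6.1, RSEM 1.20, Bowtie2 0.12.7 and limma, without roles, and the NCBIM37 build. Genes under a low level had been left out of the table: every gene reached 1 in at least 3 libraries. Whole reads were recovered for 100% of values (tolerance 0.02 reads), and 1 read was worth 0.0901 to 0.231 units, which limits the precision of low genes. The control columns are headed Het and the heterozygote columns DH (KO for homozygotes). They were assigned from the study's methods, where the controls are heterozygous for the floxed allele without Cre, and because the group averages in the study's tables of changed genes equal the means of these columns. Control and heterozygote columns are not tied to single samples, and libraries are numbered as the columns are. The fold changes and p-values of those tables were not used.

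Values as log2(value + 0.5) were fitted for all 3 groups with limma 3.58.1 (empirical Bayes with a mean-variance trend, R 4.3.3), with Benjamini-Hochberg adjustment over 14011 genes and a threshold of 0.05. Intervals are 95% and unadjusted. The smallest p of an exact test of 3 against 3 is 0.1, so none was used. Alternatives were edgeR 4.0.16 (quasi-likelihood, TMM) on the recovered reads, pseudocounts of 0.1 and 1, a filter (value of 2 in 3 libraries), only the groups compared, quantile normalization, no trend, removal of the length trend, a threshold of 0.01, a replicate block and each library left out. The fits were tested on simulated data. Exonic length, positions and sequences came from GENCODE and the genome of NCBIM37 (13987 genes placed), and copies from BLAST+ 2.17.0. All 7 members, the other S100 genes, called genes of the stretch, partners, *Ctcf* and the 5 genes most like *S100a1* were named. The members and lists were chosen with earlier results of these data known.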

Additional observations from a re-analysis of the deposited data

How the results depend on the processing

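Of 396 differences of the 7 S100 genes under the alternatives, 4 changed sign, all of *S100a16*. Where 4 neighbors of *S100a1* were called between homozygotes and controls, the number was 0 without the mean-variance trend, 1 with the length trend removed and 0 at a threshold of 0.01, and 0 to 4 with a library left out (2 without control 1 or control 2, 0 without control 3, 1 without homozygote 1 or homozygote 3). Of the 4 genes of the stretch called between homozygotes and heterozygotes, 2 were called at 0.01 and 2 to 3 with a library left out. Of the 6 partner genes called, 2 were called without the trend and 2 at 0.01 in both homozygote comparisons. With a library left out they numbered 2 to 6 against controls (2 without control 3, 3 without homozygote 3) and 2 to 7 against heterozygotes (3 without heterozygote 2, 2 without homozygote 3). Smaller lists called at 0.01 follow from the threshold, and the cause of the other differences was not tested. The difference of *S100a16* between heterozygotes and controls, -0.01, was 0.031 by edgeR and -0.18 to 0.11 with a library left out. *S100a6* between homozygotes and heterozygotes had an adjusted p of 0.0615 without the trend by limma. *S100a4* was not tested under the filter on low values.

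Libraries of the same number did not deviate together (correlations of deviations from the group means -0.143 to 0.128), so the numbers do not pair them. With a replicate block, 3 neighbors were called against controls, 3 against heterozygotes and 0 between heterozygotes and controls, 3 genes of the stretch in each homozygote comparison, and 6 and 5 partners.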
